A study of Rattus norvegicus with 38 samples.

Results

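The genes followed here encode red cell proteins, the enzymes of heme synthesis and the nuclear factors of red cell formation. They were taken by symbol, under current or former names, from a list of 34 genes that was chosen with earlier results of these data known. Of these, 31 had at least 1 probeset with a single gene symbol on the peripheral blood mononuclear cell (PBMC) arrays (47 probesets, among 14213 named genes), and 25 of the 31 also had one on the heart arrays (29 probesets, among 10410 named genes). Epb42, Klf1, Uros, Cpox, Slc25a37 and Tfdp2 were measured in PBMC only, and Ermap, Trim10 and Tspo2 were not analysed here. Where a gene had several probesets, the brightest one (highest mean log2 signal over all arrays of the tissue) stands for it below.

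The study asked whether differences between rat strains could be mistaken for the effects of acute cellular rejection of a transplanted heart. A Dark Agouti (DA) heart was placed in the abdomen of a DA rat (isograft) or of a Brown Norway (BN) rat (allograft), and tissue was taken on post-transplant day 6. Heart RNA was measured on 18 RAE230A arrays, 5 from DA allografts, 4 from DA isografts, 5 from the native BN hearts of the allograft recipients and 4 from the native DA hearts of the isograft recipients. PBMC were isolated on a density gradient and measured on 20 RAE230 2.0 arrays, 5 from BN allograft recipients, 9 from DA isograft recipients, 3 from untransplanted BN rats and 3 from untransplanted DA rats. In the recipients strain and type of graft coincide, so that the difference between BN and DA recipients holds both, and in the native hearts the strain difference also holds the type of graft received. Each array stands for a separate numbered animal or organ, and how precise a value is depends on how many there were.

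Red blood cells are filled with hemoglobin, and each globin chain holds a heme made by a chain of enzymes that starts in the mitochondrion with Alas2 and ends there with Fech, which inserts iron. The membrane is tied to a spectrin skeleton through band 3 (Slc4a1), ankyrin and protein 4.2, and Gata1, Tal1 and Klf1 switch these genes on in red cell precursors. Mature red cells carry little RNA, whereas reticulocytes, the youngest cells in the blood, still hold the transcripts of these genes, and a density gradient removes most but not all red cells from a PBMC preparation.

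Levels are given as MAS5 signals divided by the median signal of the array, so that 1 is the array median, and they compare samples for 1 gene, not genes with each other. A difference is on the log2 scale (1 is a doubling) with its standard error, from limma fits of all 4 groups of a tissue. A gene passed when its p, adjusted by Benjamini and Hochberg over all 31042 (PBMC) or 15866 (heart) probesets, was 0.10 or less. It was called when, besides, its fold change was 3 or more and 50% or more of the samples of 1 of the groups reached the array median. Array medians ran from 20.3 to 36.8 in PBMC and from 38.2 to 50.7 in heart, and no pair of arrays held identical values. The leukocyte label of the PBMC held in every preparation, with the T cell gene Cd3e at 26.8 array medians or more, the B cell gene Cd79b at 8.23 or more and the monocyte gene Cd14 at 3.11 or more.

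In PBMC, red cell transcripts were lower in BN allograft recipients than in DA isograft recipients. Of the 31 genes 23 passed as lower and none as higher in this strain plus rejection effect, whereas 11.9% of all probesets passed as lower and 6.68% as higher. Because earlier results were known when the list was chosen, such shares describe the list and do not test it. Called lower were 14 of the 31 genes against 0.638% of all probesets, and none was called higher (0.403% of all probesets). The median difference of the 31 genes was -1.55, beside -0.03 over all probesets. With quantile normalization 21 of the genes passed as lower, while over all probesets the split of 2074 higher and 3705 lower became 3392 and 3457, and with the deposited scaling alone 21 genes passed as lower and the split was 3666 and 2929. For 11 of the genes every BN recipient was below every DA recipient, which held for 3.18% of all probesets, and for none above (2.41%). In bulk samples such as these, fewer cells of a type and less RNA per cell cannot be told apart.

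The same strains were compared without a transplant, in 3 rats against 3. Of the 31 genes 2 (Rhag and Slc14a1) passed as lower in BN rats and none as higher, beside 4.84% and 3.62% of all probesets, and both were called (0.622% of all probesets were called lower, 0.428% higher). At an unadjusted p under 0.05 there were 7 of 31, all lower, beside 10.7% of all probesets lower and 7.58% higher. Over all probesets 1125 passed as higher and 1501 as lower, which became 1274 and 1101 with quantile normalization and 1989 and 1314 with the deposited scaling alone, where the same number of the 31 genes, 2, passed as lower. For 8 genes the 3 BN values lay below the 3 DA values, beside 19% of all probesets, and for none above (9.58%). The median difference was -0.10 for the 31 genes and -0.08 over all probesets. The ratio of both effects, the difference on the log2 scale between the strain plus rejection effect and the strain effect, passed for 1 gene, Tmcc2, as lower, where 0.135% of all probesets passed as lower and 0.209% as higher, and 10 of the 31 had an unadjusted p under 0.05, all lower, beside 4.19% of all probesets lower and 4.16% higher. The median ratio was -0.74 for the 31 genes and 0.02 over all probesets. Tmcc2 was also called lower (0.0515% of all probesets were called lower and 0.0709% higher). For the other 30 genes a difference between the effects was not shown by this test. None of the 13 genes with several probesets passed in the ratio by any of them. The sign of the ratio was the same over the probesets for 7 of the 13 and differed for 6. Tfdp2 by another probeset than its brightest had geometric mean levels of 1.64 and 7.40 in BN and DA recipients. In untransplanted BN and DA rats these were 0.65 and 0.33. The study listed Bpgm, Selenbp1 and Tfdp2 as candidates suppressed by rejection relative to strain. It took them from the probesets that met its FDR and fold criteria in recipients, then required a 3-fold ratio and an unadjusted p. Geometric mean levels of Bpgm were 11.6 and 42.8 in BN and DA recipients and 8.66 and 8.29 in untransplanted BN and DA rats. Those of Selenbp1 were 1.70 and 8.62, and 0.591 and 0.473. The BN level relative to DA was lower in recipients than in untransplanted rats for each, the direction the study gave.

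**Figure D1:**
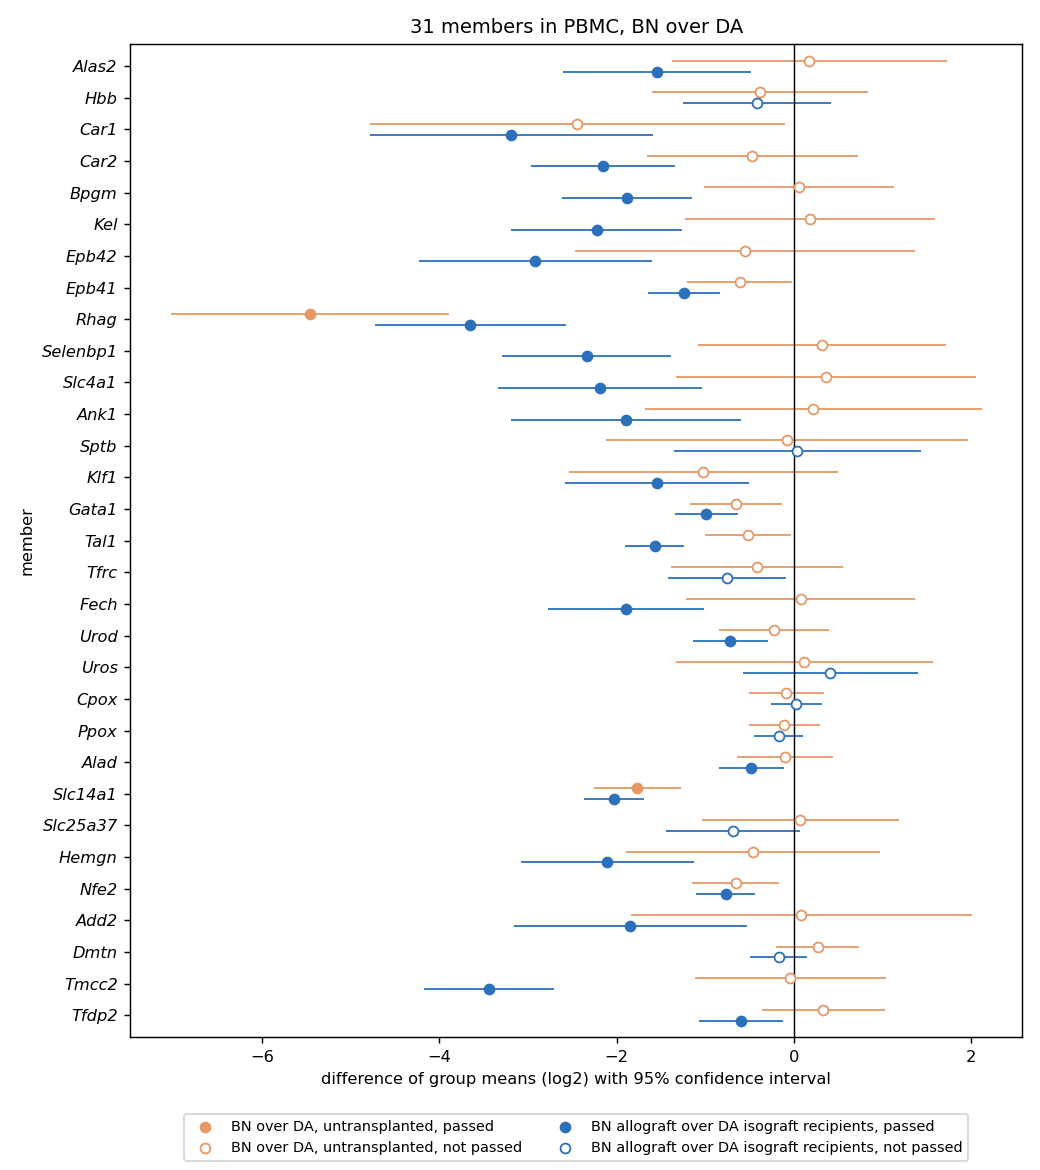
The horizontal axis gives the log2 difference of BN over DA group means with its 95% confidence interval for each of the 31 genes, in untransplanted rats (orange, 3 against 3) and in recipients (blue, 5 allograft against 9 isograft recipients), with filled circles for genes that passed at an adjusted p of at most 0.10. In recipients 23 genes lie left of 0 and passed, and in untransplanted rats Rhag and Slc14a1 did.

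Of the 10 genes for the membrane and its skeleton, 8 passed as lower in BN recipients and 2, Sptb and Dmtn, did not pass. Slc4a1, band 3, exchanges chloride for bicarbonate and anchors the skeleton. It stood at 3.59, 16.4, 21.7, 10.3 and 6.09 array medians in BN recipients 3 to 7, the order used for this group throughout, and at 13.4 to 110 (median 69.5) in the 9 DA recipients. In untransplanted rats 1 to 3 it was at 0.5197, 2.19 and 1.81 in BN and 0.722, 1.697 and 0.7898 in DA. The recipient groups overlapped, with BN animals 4 and 5 inside the DA range, and the untransplanted strains overlapped as well. The difference was -2.19 ± 0.55 in recipients (adjusted p = 0.0122) and 0.36 ± 0.81 in untransplanted rats (adjusted p = 0.873).

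Ank1 encodes ankyrin, the link between band 3 and spectrin. Its levels were 0.353, 0.657, 0.844, 0.439 and 0.7204 in BN recipients, 0.761 to 8.1 (median 2.97) in DA recipients, 0.215, 0.0666 and 0.236 in untransplanted BN and 0.126, 0.419 and 0.0406 in untransplanted DA rats. DA recipient 16 lay under BN recipient 5, so that the groups overlapped, and the difference was -1.89 ± 0.62 (adjusted p = 0.0505), which did not pass without BN recipient 3 (adjusted p = 0.109) or 6 (adjusted p = 0.112). Epb42, protein 4.2, stood at 0.0577, 0.696, 1.204, 0.243 and 0.428 in BN recipients and at 1.24 to 8.01 (median 2.76) in DA recipients, so that the highest BN recipient was just under the lowest DA recipient. In untransplanted rats its levels were all under the array median, 0.04205, 0.128 and 0.102 in BN and 0.0615, 0.262 and 0.106 in DA. The difference between recipients was -2.92 ± 0.62 (adjusted p = 0.00389). Add2, beta adducin, which caps actin filaments of the skeleton, stood at 0.316, 0.962, 1.18, 0.433 and 0.1002 in BN recipients and 0.431 to 3.39 (median 2.02) in DA recipients, with overlap. It was at 0.0671, 0.0376 and 0.159 in untransplanted BN and 0.0781, 0.153 and 0.0281 in untransplanted DA rats. Its difference of -1.84 ± 0.62 passed (adjusted p = 0.0588) but did not when BN recipient 3, 6 or 7 was left out (adjusted p = 0.113, 0.107 and 0.204).

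Kel carries the Kell blood group. Its levels were 1.096, 1.45, 2.41, 0.816 and 1.28 in BN recipients and 2.08 to 14.5 (median 8.003) in DA recipients, and BN animal 5 alone reached the DA range. Untransplanted rats were at 0.4198, 0.572 and 0.346 in BN and 0.408, 0.393 and 0.357 in DA. The difference was -2.23 ± 0.46 in recipients (adjusted p = 0.00284) and 0.18 ± 0.67 in untransplanted rats (adjusted p = 0.932). Epb41, protein 4.1, passed in recipients with -1.24 ± 0.19 and no overlap between the groups. Sptb, beta spectrin, was under the array median in every PBMC group by its median level and differed by 0.04 ± 0.66 (adjusted p = 0.98), and Dmtn, dematin, by -0.17 ± 0.15 (adjusted p = 0.525).

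Rhag and Slc14a1 passed in both strain comparisons. Rhag, the ammonia channel that carries the Rh complex to the membrane, stood at 0.0464, 0.385 and 0.258 in untransplanted BN rats and at 9.85, 8.91 and 4.45 in untransplanted DA rats. In recipients it was at 0.538, 0.844, 0.807, 0.151 and 0.119 in BN and at 2.65 to 6.88 (median 5.005) in DA. Every BN value was below every DA value in both settings, and the BN values lay under the array median. The difference was -5.46 ± 0.75 in untransplanted rats (adjusted p = 0.000182) and -3.65 ± 0.51 in recipients (adjusted p = 8.02e-05), and the ratio of both effects was 1.81 ± 0.91 (adjusted p = 0.619). Slc14a1, the urea transporter with the Kidd blood group, stood at 4.87, 4.01 and 5.398 in untransplanted BN and 14.1, 14.9 and 19.7 in untransplanted DA rats. It was at 2.79, 2.54, 3.41, 2.82 and 2.46 in BN recipients and 8.89 to 14.8 (median 9.88) in DA recipients, again with no overlap. The differences were -1.76 ± 0.24 (adjusted p = 0.00014) and -2.03 ± 0.16 (adjusted p = 1.31e-07), and a second probeset of Slc14a1 gave -1.74 and -0.70 and passed in both.

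Upstream sequences of these genes were also searched for short runs of letters. The 250 bases before the start of the gene model were taken from RefSeq (GRCr8) for 22 of the 31 genes, in 23 windows. They were searched on both strands for the letters AGATAA, or with G as the last letter AGATAG, and for TGATAA, or with G as the last letter TGATAG, all of them cores that GATA factors bind, and 11 of the 23 windows (47.8%) held a match, beside 27% of the 33469 windows of all genes. Among the 17 genes that passed as lower in BN recipients and had a window, 10 of 18 windows (55.6%) held a match. The letters CACCC, part of the box that Klf1 binds, were found in 10 of the 23 windows (43.5%), in 7 of those 18 (38.9%) and in 49.2% of all windows. A match is a run of letters and not a measured site. The genes were listed as red cell genes, so these shares do not bear on the differences between recipients. The windows come from the reference assembly and do not compare the strains. Shown are Rhag, which differed in both strain comparisons, Kel and Epb42, which differed in recipients, and Tmcc2, which passed in the ratio of both effects, read 5′ to 3′ on the strand of the gene, with GATA matches in capitals:
Rhag, chr9:27594391-27594640, minus strand: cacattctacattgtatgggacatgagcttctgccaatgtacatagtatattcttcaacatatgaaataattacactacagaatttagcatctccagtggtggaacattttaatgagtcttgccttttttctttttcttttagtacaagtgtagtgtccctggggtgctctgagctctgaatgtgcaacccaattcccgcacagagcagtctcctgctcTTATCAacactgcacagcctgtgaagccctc
Kel, chr4:71551774-71552023, minus strand: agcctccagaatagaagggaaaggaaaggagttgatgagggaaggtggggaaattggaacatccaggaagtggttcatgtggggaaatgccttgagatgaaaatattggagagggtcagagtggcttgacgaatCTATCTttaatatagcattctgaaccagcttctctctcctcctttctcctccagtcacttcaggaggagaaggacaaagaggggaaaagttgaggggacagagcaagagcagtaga
Epb42, chr3:128451684-128451933, minus strand: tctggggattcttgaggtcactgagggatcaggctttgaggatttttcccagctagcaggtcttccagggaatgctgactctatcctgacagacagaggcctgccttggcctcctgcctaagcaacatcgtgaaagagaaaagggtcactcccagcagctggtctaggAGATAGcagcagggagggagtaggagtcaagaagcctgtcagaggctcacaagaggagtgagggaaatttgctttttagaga
Tmcc2, chr13:46383863-46384112, minus strand: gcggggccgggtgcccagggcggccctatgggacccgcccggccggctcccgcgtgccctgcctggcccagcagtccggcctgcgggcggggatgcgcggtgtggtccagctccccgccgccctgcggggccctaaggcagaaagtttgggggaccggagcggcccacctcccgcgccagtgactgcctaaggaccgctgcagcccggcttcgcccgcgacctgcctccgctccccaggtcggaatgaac
The match begins at position -31 from the start in Rhag, -116 in Kel and -82 in Epb42, and the Tmcc2 window holds none.

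Tmcc2, a membrane protein with coiled coils, was the gene for which the strain difference itself differed between recipients and untransplanted rats. Its levels were 4.06, 7.304, 9.498, 4.37 and 3.64 in BN recipients and 26.7 to 117 (median 77.7) in DA recipients. In untransplanted rats they were 3.197, 4.33 and 4.12 in BN and 3.48, 5.502 and 3.24 in DA. All 9 DA recipients stood above all 5 BN recipients and above the untransplanted rats of both strains, and the BN recipients overlapped with the untransplanted rats. The difference was -3.44 ± 0.35 in recipients (adjusted p = 2.56e-06) and -0.04 ± 0.51 in untransplanted rats (adjusted p = 0.981), and the ratio of both effects was -3.40 ± 0.62 (adjusted p = 0.0323). It passed in every fit that left out 1 animal, with ratios from -3.63 to -3.25.

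**Figure D2:**
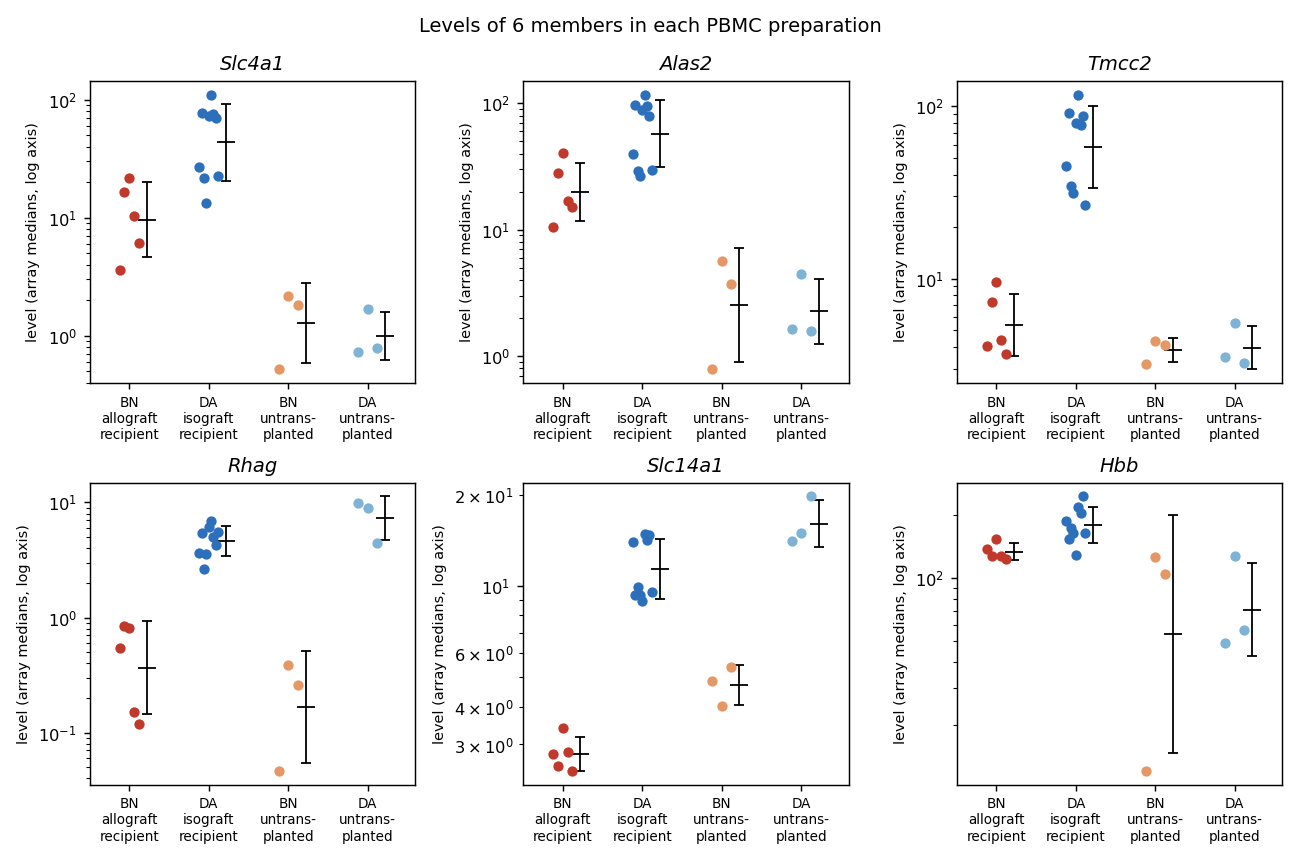
The vertical axes give levels in array medians on a log scale in the 4 PBMC groups for Slc4a1, Alas2, Tmcc2, Rhag, Slc14a1 and Hbb, with 1 point per rat and bars for the geometric mean with 1 SD of the log2 levels. For Slc4a1, Alas2 and Tmcc2 the DA recipients reach 110, 117 and 117 array medians, and for Rhag and Slc14a1 the BN groups lie below the DA groups with and without a transplant.

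Of the 7 heme synthesis enzymes measured, Alas2, Alad, Urod and Fech passed as lower in BN recipients, and Uros, Cpox and Ppox did not pass. Alas2, the rate-limiting enzyme of erythroid heme synthesis, stood at 10.5, 28.2, 40.2, 16.9 and 15.1 in BN recipients and 26.4 to 117 (median 79.2) in DA recipients. Untransplanted rats were at 0.786, 5.64 and 3.72 in BN and 1.63, 4.46 and 1.58 in DA. BN animals 4 and 5 lay inside the DA range, and the difference was -1.54 ± 0.50 (adjusted p = 0.0505). Fech, which inserts iron into the ring, stood at 5.15, 15.8, 21.3, 8.91 and 6.88 in BN recipients and 16.3 to 82.99 (median 56.7) in DA recipients, with only BN animal 5 in the DA range. It was at 4.54, 6.03 and 6.06 in untransplanted BN and 5.13, 5.26 and 5.22 in untransplanted DA rats. The difference was -1.90 ± 0.42 (adjusted p = 0.00506). The differences of the middle enzymes were -0.48 ± 0.17 for Alad (adjusted p = 0.0806) and -0.72 ± 0.20 for Urod (adjusted p = 0.0232).

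Uros had levels of 0.3697, 0.7403, 0.689, 0.561 and 0.599 in BN recipients and 0.07603 to 0.873 (median 0.602) in DA recipients, 0.671, 0.966 and 1.01 in untransplanted BN and 0.832, 0.6697 and 0.914 in untransplanted DA rats. Its DA range was set by animals 9 and 21, which were far below the others, and the difference of 0.41 ± 0.47 did not pass (adjusted p = 0.639). Cpox differed by 0.03 ± 0.14 (adjusted p = 0.937) and Ppox by -0.17 ± 0.13 (adjusted p = 0.443).

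The iron uptake genes did not pass in recipients. Tfrc, the transferrin receptor, which dividing leukocytes also use, stood at 5.67, 11.1, 11.7, 5.98 and 5.25 in BN recipients and 5.96 to 24.2 (median 13) in DA recipients, and at 8.38, 7.13 and 7.97 in untransplanted BN and 8.98, 10.3 and 12.2 in untransplanted DA rats. The groups overlapped, with a difference between recipients of -0.75 ± 0.32 (adjusted p = 0.134). Slc25a37, mitoferrin, which brings iron into the mitochondrion, stood at 3.06, 8.47, 9.3, 3.76 and 4.63 in BN recipients and 3.94 to 15.8 (median 8.82) in DA recipients. It was at 2.13, 2.2 and 1.78 in untransplanted BN and 1.76, 1.96 and 2.06 in untransplanted DA rats. Both untransplanted groups lay below every recipient, and the recipients overlapped, with a difference of -0.68 ± 0.36 (adjusted p = 0.244).

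Among the 5 globin and cytosolic genes, Hbb did not pass and the other 4 passed as lower in BN recipients. Hbb, beta globin, stood at 138, 128, 155, 128 and 124 in BN recipients, at 129 to 246 (median 174) in DA recipients, at 12.1, 126 and 105 in untransplanted BN and at 49.1, 127 and 56.9 in untransplanted DA rats. It was among the 60 brightest probesets of every recipient's array, and its rank ran from 153 to 3744 in untransplanted rats, with BN animal 1 far below the others. The recipients overlapped, and the difference was -0.42 ± 0.40 (adjusted p = 0.559). The SD of log2 levels was 0.13 in BN and 0.28 in DA recipients for Hbb, beside 0.76 and 0.88 for Alas2. How well the arrays resolve differences at such brightness was not tested. The Hbb probeset is of a type that can bind transcripts of related globin genes, so its level is uncertain as that of 1 gene.

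Car1 and Car2 are the carbonic anhydrases of the red cell. Car1 stood at 0.169, 0.709, 0.977, 0.0511 and 0.727 in BN recipients and 0.778 to 8.38 (median 3.33) in DA recipients, and at 0.309, 0.0673 and 0.0957 in untransplanted BN and 1.39, 1.17 and 0.197 in untransplanted DA rats. Only the lowest DA recipient lay within the BN range, and the difference was -3.19 ± 0.76 (adjusted p = 0.00858). Car2 stood at 5.502, 11.7, 17.4, 10.5 and 5.23 in BN recipients and 19.5 to 83.6 (median 54.99) in DA recipients. It was at 8.96, 9.62 and 11.3 in untransplanted BN and 13.3, 13.9 and 13.9 in untransplanted DA rats. All BN values lay below all DA values in both settings, but the difference passed in recipients (-2.15 ± 0.39, adjusted p = 0.000907) and not in untransplanted rats (-0.47 ± 0.57, adjusted p = 0.74).

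Bpgm makes 2,3-bisphosphoglycerate, which lowers the oxygen affinity of hemoglobin. Its levels were 8.23, 14.1, 17.8, 10.9 and 9.41 in BN recipients and 20.03 to 85.2 (median 62.1) in DA recipients, with no overlap, and 7.14, 9.51 and 9.54 in untransplanted BN and 7.996, 9.14 and 7.798 in untransplanted DA rats. The difference was -1.88 ± 0.35 (adjusted p = 0.00118), and a second probeset gave -1.94. Selenbp1, a selenium-binding protein abundant in red cells, stood at 1.19, 2.35, 3.17, 1.61 and 1.001 in BN recipients and 3.52 to 19.2 (median 10.5) in DA recipients, and at 0.3503, 0.835 and 0.705 in untransplanted BN and 0.207, 0.877 and 0.582 in untransplanted DA rats. The recipients did not overlap, and the difference was -2.34 ± 0.45 (adjusted p = 0.00179).

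All 6 nuclear regulators passed as lower in BN recipients. Hemgn, a nuclear protein of red cell precursors, was called. It stood at 0.904, 2.45, 2.605, 1.51 and 1.43 in BN recipients, 2.46 to 16.8 (median 9.88) in DA recipients, 0.268, 0.489 and 0.294 in untransplanted BN and 0.449, 0.4096 and 0.551 in untransplanted DA rats. BN animal 5 alone reached the DA range, and the difference was -2.10 ± 0.47 (adjusted p = 0.00507). Klf1, which activates the adult beta globin gene, stood at 0.543, 1.12, 1.17, 0.4003 and 0.466 in BN recipients and 0.751 to 5.88 (median 2.52) in DA recipients, and at 0.339, 0.314 and 0.469 in untransplanted BN and 0.663, 0.7598 and 0.825 in untransplanted DA rats. The recipients overlapped, and the difference was -1.54 ± 0.49 (adjusted p = 0.0454). Gata1, Tal1 and Nfe2, which platelets and their precursors also express, passed with -0.99 ± 0.17, -1.57 ± 0.16 and -0.77 ± 0.16, in each case with no overlap between the recipient groups. Their differences in untransplanted rats were -0.65 ± 0.25, -0.52 ± 0.23 and -0.66 ± 0.23, with adjusted p = 0.15, 0.242 and 0.121, none of which passed. Tfdp2, a partner of E2F factors, passed with -0.60 ± 0.22 by its brightest probeset and with -2.17 and -1.996 by the others.

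Of the 13 genes with several PBMC probesets, 9 had probesets with the same outcome in recipients and 4 did not. Ank1 had 1 probeset that passed and 2 that did not (-0.34 and -0.06), Epb41 a second probeset at -0.10 and Tal1 at 0.17, and Uros a dimmer probeset that passed at -1.47 where its brightest did not. Between recipients and untransplanted rats the outcome was the same for 8 genes and different for 5 in DA. In BN it was the same for 7 and different for 6. Tfdp2 had geometric mean levels of 2.70 in isograft recipients and 2.49 in untransplanted DA rats by its brightest probeset, and 7.40 and 0.33 by another.

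The genes also differed between recipients and untransplanted rats. These comparisons share the recipients with the results above. The study states that transplanted and untransplanted samples were processed in separate batches, and it corrected its principal component plot of PBMC for this. No batch correction was made here. The arrays carry different codes at the start of their titles and differ in array median (26.7 to 36.8 in recipients against 20.3 to 23.7). Transplantation and the set of arrays therefore cannot be told apart. In DA rats 17 of the 31 genes passed as higher in isograft recipients and 3 as lower, where 14.9% of all probesets passed as higher and 32.3% as lower. Called higher were 13 genes beside 0.548% of all probesets, and none was called lower (1.57%). The median difference was 1.34 for the 31 genes and -0.19 over all probesets. In BN rats 10 genes passed as higher in allograft recipients and 4 as lower, beside 12.4% and 29.5% of all probesets, and 4 were called higher (0.457%) and none lower (1.56%). The median difference was 0.48 for the genes and -0.15 over all probesets. Scaling moved these comparisons. The median over all probesets was -0.01 in DA and 0.00 in BN with quantile normalization, and 0.32 and 0.33 with the deposited scaling alone, and the split of all probesets went from 4633 higher and 10022 lower to 4710 and 4442 and to 10163 and 3921 in DA, and from 3834 and 9149 to 4239 and 4324 and to 8928 and 3667 in BN. Genes that passed as higher then numbered 19 and 24 in DA and 8 and 13 in BN. The BN count of genes that passed as higher was 5 without allograft recipient 5 and 6 without untransplanted rat 1. Genes of other blood cells differed in the same comparisons, and their part in these differences was not tested. Of 10 T cell genes 9 passed as lower in either strain, and their summed level was 328 to 558 array medians in isograft recipients against 820 to 866 in untransplanted DA rats, and 205 to 350 in allograft recipients against 457 to 510 in untransplanted BN rats. Of 6 B cell genes 5 passed as lower in DA and 6 in BN, with sums of 148 to 257 against 357 to 481 and of 204.5 to 288 against 396 to 486. Of 11 neutrophil genes 6 passed as higher in DA and 7 in BN, with sums of 56.0 to 116 against 46.2 to 71.8 and of 113 to 263 against 61.1 to 72.9. The median differences in DA and BN were -0.92 and -0.96 for the T cell genes, -1.08 and -1.01 for the B cell genes and 1.16 and 1.34 for the neutrophil genes.

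Of the 7 enzymes of heme synthesis 2 (Alas2 and Fech) passed as higher in DA isograft recipients, 2 (Ppox and Cpox) as lower and 3 did not pass, with a median of -0.03, and of the 10 membrane and skeleton genes 6 passed as higher and 1 as lower, with a median of 2.65. The difference was 5.46 ± 0.66 for Slc4a1 (adjusted p = 3.37e-05) and 4.68 ± 0.60 for Alas2 (adjusted p = 4.69e-05), and every isograft recipient lay above every untransplanted DA rat for both. The same held for Tmcc2 (3.88 ± 0.42), Epb42 (4.45 ± 0.75), Selenbp1 (4.19 ± 0.54), Kel (4.001 ± 0.55), Ank1 (4.05 ± 0.74), Add2 (4.49 ± 0.75), Hemgn (3.93 ± 0.56), Fech (2.85 ± 0.50), Bpgm (2.37 ± 0.42) and Slc25a37 (2.15 ± 0.43). In all, 14 of the 31 genes had no overlap in the higher direction, beside 5.28% of all probesets. Car1 passed with 2.17 ± 0.91 (adjusted p = 0.0669) but not without untransplanted DA rat 3 (adjusted p = 0.364). Hbb passed with 1.34 ± 0.48 (adjusted p = 0.0322).

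In BN rats the called genes were Alas2 (2.96 ± 0.66, adjusted p = 0.00276), Slc4a1 (2.91 ± 0.72, adjusted p = 0.00526), Hemgn (2.29 ± 0.61, adjusted p = 0.00808) and Kel (1.60 ± 0.60, adjusted p = 0.0483). Kel did not pass without allograft recipient 5 (adjusted p = 0.104) or without untransplanted BN rat 1 (adjusted p = 0.112) or 3 (adjusted p = 0.152). For 7 genes all BN recipients lay above all untransplanted BN rats, beside 10.9% of all probesets, and for 6 below, beside 27.8%. Tmcc2, which was 3.88 ± 0.42 higher in DA recipients, differed by 0.48 ± 0.46 in BN (adjusted p = 0.445). Ppox, which oxidizes protoporphyrinogen, passed as lower in both strains (-0.90 ± 0.16 in DA and -0.97 ± 0.17 in BN), in each of the scalings tried. Slc14a1 (-0.50 ± 0.19 and -0.76 ± 0.21) and, in DA, Cpox (-0.45 ± 0.16), which makes the substrate of Ppox, also passed as lower, but with quantile normalization or the deposited scaling alone neither passed and in DA the sign of both turned.

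**Figure D3:**
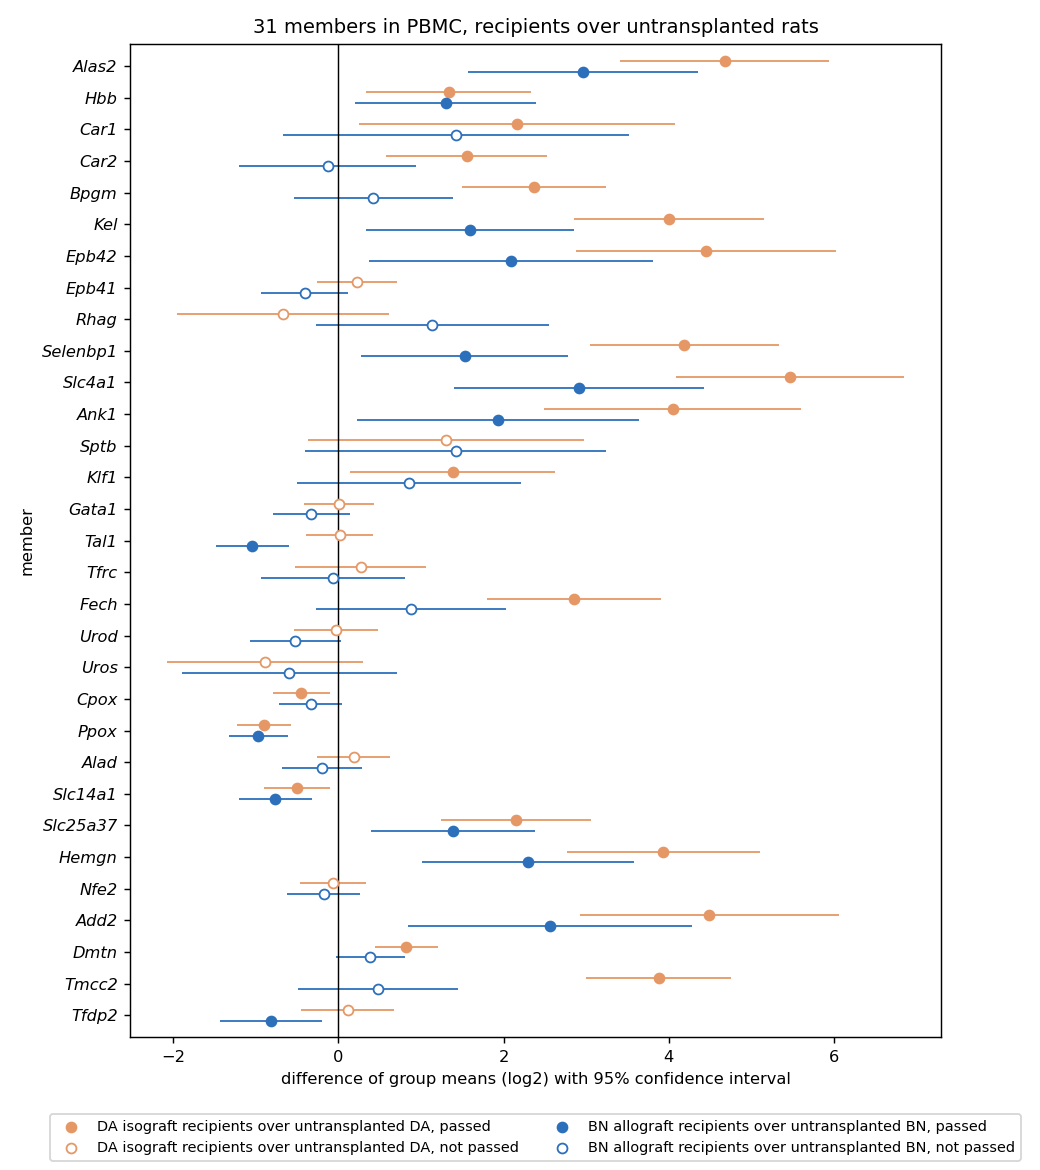
The horizontal axis gives the log2 difference of recipients over untransplanted rats of the same strain with its 95% confidence interval for the 31 genes, in DA (orange, 9 isograft recipients against 3) and BN (blue, 5 allograft recipients against 3), with filled circles for genes that passed. In DA 17 genes passed to the right of 0 and 3 to the left, and in BN 10 and 4.

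Animals of the same group differed in red cell transcripts, and the spread was described without a test. In the 9 isograft recipients the median within-group SD of log2 levels was 0.804 for the 31 genes and 0.406 over all probesets. Of the 29 genes whose mean log2 level there was at or above that of the array median, 16 had an SD over 0.562, the 95th percentile of probesets of that brightness. The median SD of the 29 was 0.786 beside 0.278. None of the 31 genes had an SD over 1.39, the 95th percentile of all probesets, dim ones included. In allograft recipients the medians were 0.566 for the genes and 0.336 over all probesets. In untransplanted rats they were 0.323 and 0.270 in BN, and 0.261 and 0.329 in DA. In the hearts the median SD of the 25 genes ran from 0.370 to 0.403 over the 4 groups, where that of all probesets ran from 0.334 to 0.360.

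The 5 genes with the largest SD in isograft recipients were Ank1 (1.28), Car1 (1.255), Uros (1.21), Klf1 (1.20) and Kel (1.135), and 8 of the 31 had an SD of at least 1. The same animals were high or low for most genes. Animal 18 was the highest for 19 of the 31 genes, and animals 14 and 16 were each the lowest for 10. How often each animal was highest or lowest over all probesets was not counted. For Slc4a1 the animals fell apart into 9, 11, 14 and 16 at 13.4 to 26.9 array medians and 12, 17, 18, 20 and 21 at 69.5 to 110, a gap of 2.58-fold. Animals 9, 11, 14 and 16 were also the 4 lowest for 19 of the 31 genes, Slc4a1 included, which held for 1.76% of all probesets, and they were the 4 highest for none. These sets of animals were read from the data and are no groups of the study.

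The genes outside this order included Hbb, for which animal 21 was highest at 246 and animal 17, among the high animals for Slc4a1, lowest at 129. Rhag, Sptb, Gata1, Tal1, Uros, Cpox, Ppox, Slc14a1, Nfe2, Dmtn and Tfdp2 also had another order, and for 12 genes the SD was under 0.5. Array medians in the isograft recipients ran from 26.7 in animal 11 to 34.4 in animal 17, and the summed level of 11 platelet genes ran from 577 in animal 14 to 736 in animal 16, both among the low animals for Slc4a1. The summed level of 10 T cell genes ran from 328 in animal 17 to 558 in animal 21, both among the high animals. For 6 B cell genes the sum ran from 148 in animal 17 to 257 in animal 18. For 8 monocyte and macrophage genes it ran from 240.5 in animal 14 to 367.5 in animal 20. Animals 18, 20 and 21, high for Slc4a1, had the highest sums for both of these lists. For 11 neutrophil genes the sum ran from 55.95 in animal 14 to 116 in animal 11. For 7 NK cell genes it ran from 160.5 in animal 12 to 227.6 in animals 16 and 21. The part of these cells in this order was not tested. Sums of other genes of the red cell lineage, in lists that hold none of the 31, were lowest in the same 4 animals, 9, 11, 14 and 16. For 29 other red cell proteins the sum was 591 to 729 array medians in these animals and 837 to 1211 in the other 5. For 20 other heme and iron genes it was 131 to 159.8 and 178 to 209, and for 24 other erythroid regulators 200.4 to 255 and 269.7 to 343. In BN recipients animal 5 was highest for 22 of the 31 genes, and animals 7 and 3 were lowest for 14 and 11. Their array medians were 32.1 in animal 5, 36.8 in animal 7 and 27.4 in animal 3. The same counts over all probesets were not made. The summed level of 11 neutrophil genes was 263 in animal 5 and 113 to 131 in the other BN recipients.

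**Figure D4:**
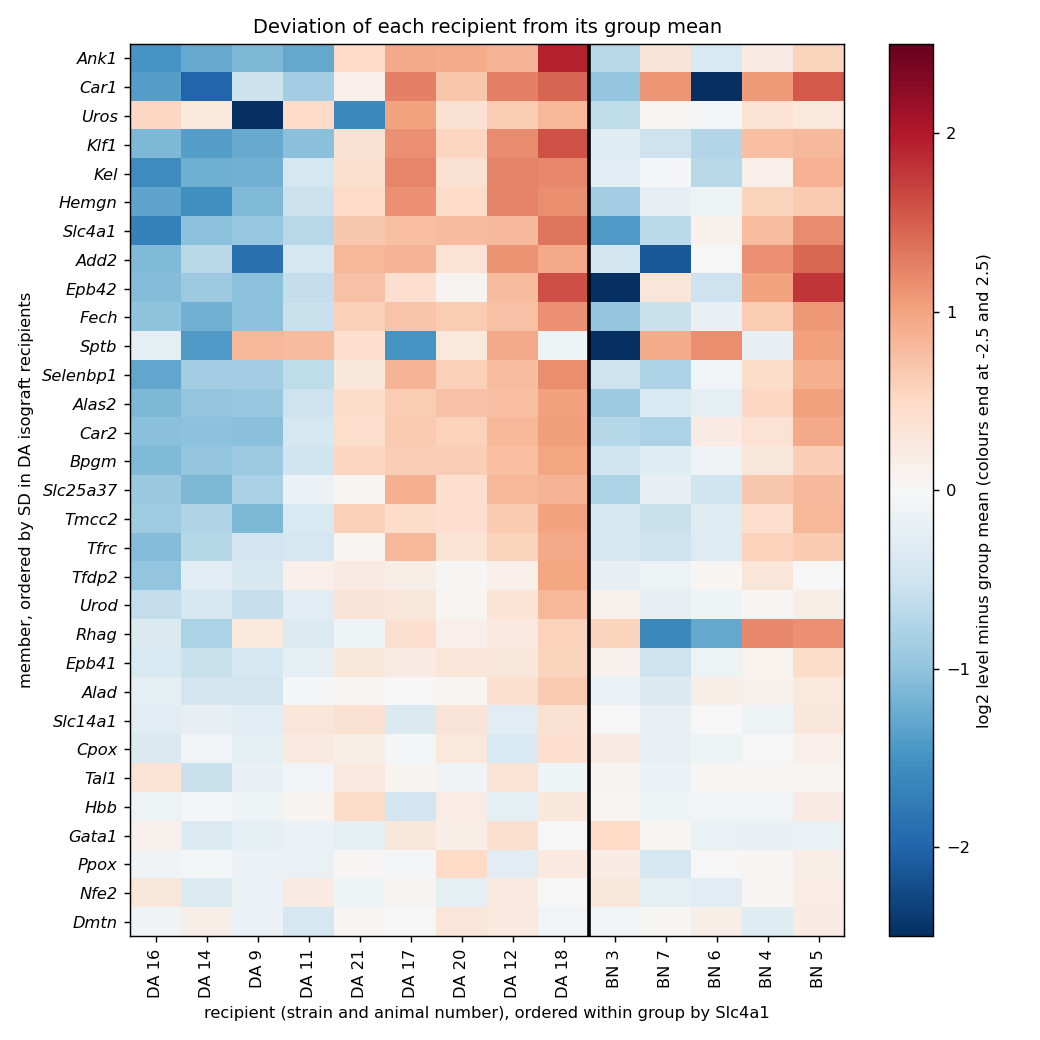
Each column is a recipient and each row a gene, with color for the log2 level minus the mean of the recipient's own group, 9 DA isograft recipients left of the line and 5 BN allograft recipients right of it, ordered within each group by Slc4a1. The DA animals 16, 14, 9 and 11 are blue in most of the upper rows, animal 18 is red in most, and rows from Slc14a1 down change little.

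Other genes of red cells, heme and red cell regulation, taken from lists of known function, gave mixed counts. Over all probesets 11.9% passed as lower and 6.68% as higher in BN than in DA recipients. In recipients over untransplanted rats 14.9% passed as higher and 32.3% as lower in DA, and 12.4% and 29.5% in BN. Of 29 other red cell proteins measured in PBMC, 15 passed as lower in BN recipients and 1 (Cyb5r3, cytochrome b5 reductase, at 0.38) as higher, with a median of -0.62. The largest of these differences were those of Ahsp, the chaperone of alpha globin, at -2.29 ± 0.84, and Xk, the partner of Kell, at -1.51 ± 0.53. In DA rats 12 of the 29 passed as higher in recipients and 9 as lower, with a median of 0.36. Among the former were Ahsp (7.79 ± 1.00), the alpha globin gene Hba-a3 (4.15 ± 0.51) and Rhd (3.38 ± 0.50). In BN rats 4 of the 29 passed as higher in recipients and 10 as lower, with a median of -0.25. Of 20 other heme synthesis and red cell iron genes, 3 passed as higher and 4 as lower in BN recipients, with a median of -0.09. The lower ones were Slc40a1, the iron exporter ferroportin, at -1.59 ± 0.19, Bach1, Slc25a39 and Iscu, and the higher ones Hebp1, Aco1 and Abcb10. Of 24 other erythroid regulators, 7 passed as lower and 1, Bcl11a, which silences fetal globin and is also a B cell factor, as higher. E2f2, a cell cycle factor, was lowest at -2.20 ± 0.20. In recipients over untransplanted rats, 2 of the 20 heme and iron genes passed as higher and 6 as lower, in DA and in BN alike. Of the 24 regulators 3 passed as higher and 9 as lower in DA, and none and 9 in BN. The counts of lower genes in recipients over untransplanted rats were near the shares over all probesets for each of these lists. None of these genes passed in the ratio of both effects.

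Markers of other blood cells also differed between the recipient groups. Of 11 platelet genes 10 passed as lower in BN recipients and 1 as higher, beside 11.9% and 6.68% of all probesets. In untransplanted BN rats 6 of the platelet genes passed as lower, beside 4.84% of all probesets. Their summed level ran from 349 to 541 in BN recipients, from 577 to 736 in DA recipients, from 429 to 706 in untransplanted BN and from 698 to 974.5 in untransplanted DA rats. Of 10 T cell genes 8 passed as lower in BN recipients and 6 in untransplanted BN rats, with sums of 205 to 350, 328 to 558, 457 to 510 and 820 to 866 in the same order of groups. Of 11 neutrophil genes 4 passed as higher and 2 as lower in BN recipients (sums of 113 to 263 in BN and 55.95 to 116 in DA), of 8 monocyte and macrophage genes 4 and 1, of 6 B cell genes 4 and none, and of 7 NK cell genes none and 3. None of these markers was listed at 0. The part of these shifts in the result for the red cell genes was not tested.

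In the heart, Hbb, Slc4a1 and Alas2, which blood in the tissue also carries, did not pass in the rejection effect. Hbb stood at 103, 170.4, 88.7, 121 and 150.2 in allografts 3 to 7 and at 137, 90.7, 122 and 165 in isografts 9, 11, 12 and 13, the orders used for hearts throughout. In native hearts it was at 82.5, 157, 105, 94.6 and 149 in BN and 194, 166, 148 and 264 in DA. The allografts and isografts overlapped (-0.03 ± 0.25, adjusted p = 0.945), as did native BN and DA hearts (-0.73 ± 0.25, adjusted p = 0.188). Hbb ranked from 1 to 43 among the probesets of the heart arrays, where resolution at such brightness was likewise not tested. Slc4a1 stood at 0.854, 0.8802, 1.08, 0.834 and 0.563 in allografts, 0.92, 1.18, 0.687 and 0.741 in isografts, 1.297, 1.23, 1.51, 1.24 and 0.9005 in native BN and 0.859, 1.49, 1.11 and 1.06 in native DA hearts, all near the array median and with overlap. Its rejection effect was -0.06 ± 0.22 (adjusted p = 0.86). Alas2 stood at 5.09, 17.6, 11.3, 13.99 and 15.6 in allografts and 5.501, 7.68, 11.6 and 9.91 in isografts, and at 6.49, 8.78, 10.8, 7.05 and 8.68 in native BN and 12.7, 19.04, 15.8 and 17.7 in native DA hearts. Allografts and isografts overlapped (0.49 ± 0.31, adjusted p = 0.254), and native DA hearts lay above native BN hearts and isografts.

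Of the 25 genes 4 passed as higher and 8 as lower in allografts than in isografts, beside 20.2% and 21.2% of all probesets, and 1 was called higher and 4 lower, beside 3.81% and 5.05%. The allografts lay wholly above the isografts for 2 genes and wholly below for 7, beside 15.4% and 15.9% of all probesets. The median rejection effect was -0.14 for the genes and 0.02 over all probesets. Among the genes that passed as lower, Ank1 also has a muscle isoform. It stood at 0.384, 0.781, 0.735, 0.491 and 0.684 in allografts and 9.22, 8.81, 8.28 and 9.58 in isografts. It was at 17.3, 19.9, 17.6, 15.97 and 17.2 in native BN and 25.7, 19.4, 15.4 and 23.4 in native DA hearts. Every allograft lay far below every other heart, and the rejection effect was -3.92 ± 0.20 (adjusted p = 1.24e-09). Selenbp1 stood at 0.421, 0.619, 0.574, 0.5002 and 0.475 in allografts, 4.33, 2.83, 3.804 and 4.67 in isografts, 6.17, 8.15, 3.47, 4.47 and 7.63 in native BN and 6.27, 5.42, 4.75 and 5.48 in native DA hearts. The allografts were again below all other hearts, with a rejection effect of -2.90 ± 0.23 (adjusted p = 8.58e-08).

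Sptb, beta spectrin, which muscle also uses, stood at 0.538, 0.198, 0.178, 0.308 and 0.321 in allografts and 1.79, 1.24, 1.32 and 2.25 in isografts, and at 0.967, 1.66, 1.42, 1.73 and 1.103 in native BN and 1.34, 0.675, 1.49 and 1.18 in native DA hearts. The allografts did not overlap with the other groups (-2.49 ± 0.32, adjusted p = 1.02e-05). Tmcc2 stood at 1.77, 1.91, 1.39, 2.08 and 2.02 in allografts and 6.51, 5.82, 8.99 and 7.88 in isografts, and at 5.29, 6.14, 4.799, 5.24 and 5.87 in native BN and 9.099, 12.97, 14.1 and 9.37 in native DA hearts. Allografts were lowest and native DA hearts highest, with a rejection effect of -1.99 ± 0.18 (adjusted p = 2.42e-07). Fech, Urod, Alad and Slc14a1 passed as lower with -1.57 ± 0.24, -1.003 ± 0.20, -0.50 ± 0.18 and -1.01 ± 0.33.

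Tfrc was the gene called higher in allografts. It stood at 4.87, 5.79, 4.61, 5.79 and 6.502 in allografts, 1.76, 1.64, 1.98 and 1.89 in isografts, 2.895, 1.64, 2.94, 3.35 and 2.34 in native BN and 4.995, 3.48, 3.1 and 6.45 in native DA hearts. The allografts lay above every isograft (1.59 ± 0.23, adjusted p = 3.00e-05) and overlapped with the native DA hearts, and a second Tfrc probeset also gave 1.59. Nfe2 (1.38 ± 0.26), Car1 (1.55 ± 0.64) and Gata1 (1.04 ± 0.47) passed as higher from levels under the array median. Without allograft 4, allograft 5 or isograft 13, 2 genes passed as higher in place of 4. All 9 cardiomyocyte markers measured passed as lower in allografts, with Myh6 at 0.539 to 9.54 array medians in allografts and 60.4 to 109 in isografts, and 8 of 9 neutrophil, 9 of 10 T cell and all 5 monocyte and macrophage genes passed as higher. The part of these shifts in the rejection effects of the red cell genes was not tested.

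**Figure D5:**
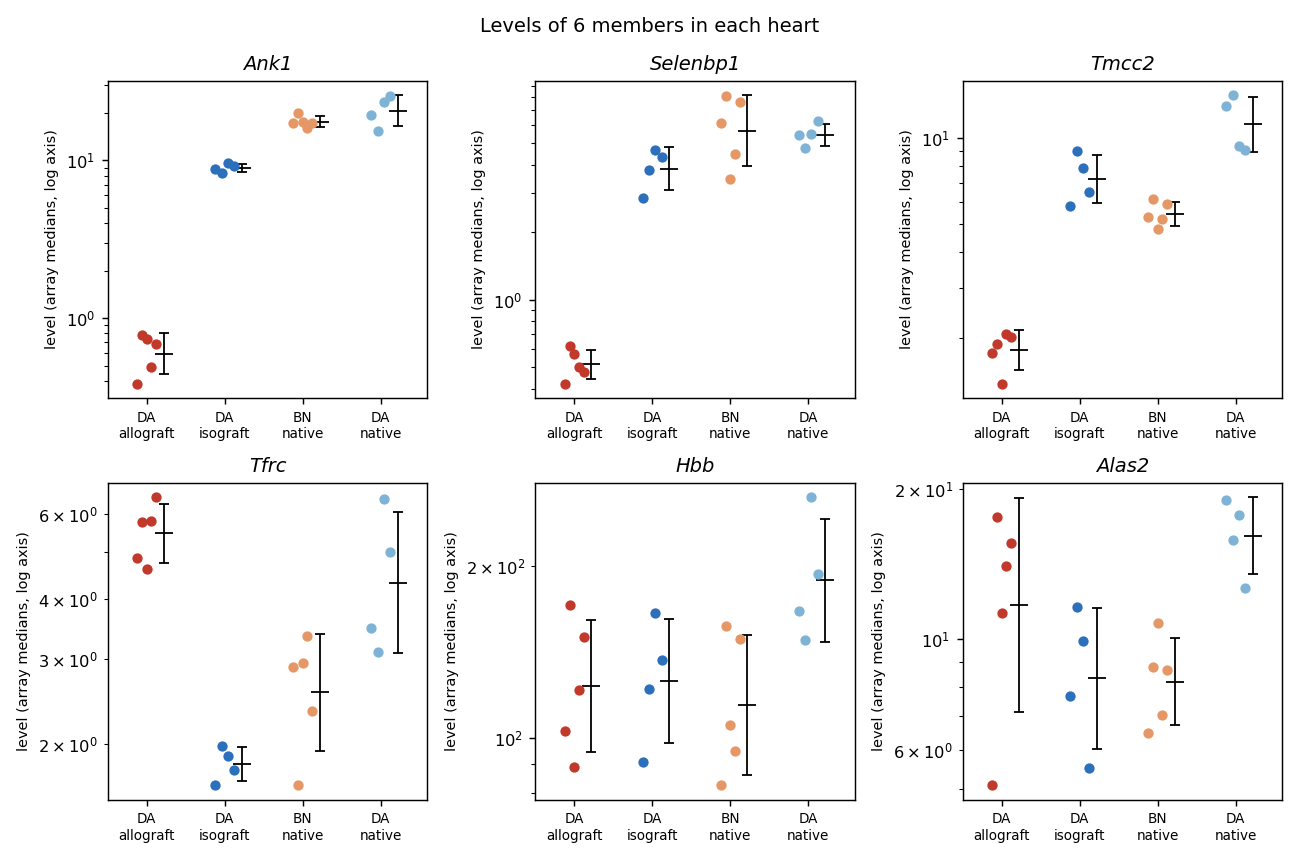
The vertical axes give levels in array medians on a log scale in the 4 heart groups for Ank1, Selenbp1, Tmcc2, Tfrc, Hbb and Alas2, with 1 point per heart and bars for the geometric mean with 1 SD of the log2 levels. The allografts lie below all other hearts for Ank1 (0.384 to 0.781), Selenbp1 and Tmcc2, and overlap with the isografts for Hbb and Alas2.

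In native hearts 4 of the 25 genes passed as lower in BN hearts than in DA hearts and none as higher, beside 1.46% and 1.49% of all probesets, with medians of -0.25 for the genes and -0.02 over all probesets. For 6 genes every native BN heart lay below every native DA heart, beside 3.4% of all probesets, and for none above (3.25%). Car2 was called (0.202% of all probesets were called lower and 0.158% higher). It stood at 1.24, 1.62, 1.66, 0.9597 and 1.82 in native BN and 4.38, 6.32, 4.33 and 5.002 in native DA hearts, and at 1.64, 2.91, 2.39, 2.86 and 2.44 in allografts and 2.18, 2.44, 2.63 and 2.85 in isografts. Every native BN heart lay below every native DA heart, and the strain effect was -1.80 ± 0.21 (adjusted p = 0.000202), whereas a second Car2 probeset did not pass. Bpgm (-1.16 ± 0.25), Tmcc2 (-1.04 ± 0.18) and Kel (-0.96 ± 0.24) were the other genes that passed. Rhag, with the largest strain effect in PBMC, stood between 0.0219 and 0.268 array medians over all hearts, and its strain effect there was 0.13 ± 0.53 (adjusted p = 0.947).

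Isografts differed from the native hearts of the same DA recipients in 8 of the 25 genes, all lower (6.5% of all probesets passed as lower and 7.16% as higher), and none was called (0.0819% of all probesets were called lower and 0.826% higher). For 9 genes the isografts lay wholly below the native hearts, beside 8.04% of all probesets, and for none above (8.73%). The medians were -0.61 for the genes and -0.08 over all probesets. The genes were Tfrc (-1.25 ± 0.24), Ank1 (-1.20 ± 0.21), Car1 (-1.94 ± 0.67), Car2 (-0.98 ± 0.22), Alas2 (-0.95 ± 0.33), Fech (-0.78 ± 0.25), Alad (-0.71 ± 0.19) and Tmcc2 (-0.64 ± 0.19). Graft and native heart of the same animal form pairs, and with the recipient as a block in a fit of the 4 pairs only Ank1 passed (-1.20, adjusted p = 0.0872). Without isograft 11 the count was 4 and without native heart 11 it was 5. All 5 monocyte and macrophage genes measured passed as higher in isografts, with a summed level of 46.7 to 77.1 array medians against 19.7 to 25.3 in the native hearts, and their part in the differences was not tested. This comparison shares the isografts with the rejection effect.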

How the data were processed

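RNA from 18 hearts and 20 PBMC preparations was hybridised to 1 array each. The authors deposited MAS5 signal intensities per probeset, scaled on each array to a mean of 100 with 2% trimmed at either end, and the MAS5 software version is not given in the sources used here. Signals were divided by the array median and taken to log2, and 57 control probesets were left out of each array type. Groups came from the labels. limma 3.58.1 (lmFit, eBayes) in R 4.3.3 was fitted to the 4 groups of a tissue, with Benjamini-Hochberg adjustment over all probesets of the array type. The same fit was also run on simulated data, the outcome of which is not given here. Thresholds followed the study's selection criteria, with a signal at or over the array median in place of its detection call. The 31 genes and all lists were chosen with earlier results of these data known. Values in every sample (for the 9 isograft recipients the lowest, median and highest) are given for called genes, for Hbb, Alas2, Slc4a1 and Tfrc and for the 5 genes with the largest SD in isograft recipients. Gene names came from the platform annotation, which can be old. Native heart and graft share a recipient number, and their deviations from group means correlated at -0.045 to 0.119. A correlation of the genes with Slc4a1 over the 9 isograft recipients was planned and is not given, because the animals fell into separate sets of 4 and 5. Alternatives were quantile normalization, the deposited scaling alone, 0.25 array medians added, the mean of a gene's probesets, fits of the compared groups only, ordinary least squares, a signal filter, replicate blocks and each animal left out.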

Additional observations from a re-analysis of the deposited data

Results flagged for a closer look

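In PBMC the strain difference of Tmcc2 in recipients differed from that in untransplanted rats by -3.40 ± 0.62 on the log2 scale (limma interaction term, adjusted p = 0.0323), the only one of the 31 genes for which this test passed. No group of 4 to 10 animals, out of 76 groups examined for the genes whose values are given, held an animal that stood apart by Dixon's criterion.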

How the results depend on the processing

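The counts of genes that passed kept within 1.5 times their value under the alternatives tried, with these exceptions. With 0.25 array medians added, 8 genes passed as lower in the heart strain effect in place of 4, and the median SD was 0.488 in BN recipients, 0.702 in DA recipients and 0.234 in untransplanted BN rats. With dim probesets left out before adjustment, 1 gene passed as higher in the rejection effect. Genes lower in recipients than in untransplanted rats numbered 1 in DA and 1 in BN with quantile normalization, 1 in DA and 2 in BN with the deposited scaling alone, and 2 in BN with the mean of a gene's probesets. With the recipient as a replicate block in a fit of 4 pairs, 1 gene passed as lower in the surgical effect, and a random block over all hearts left 3 higher and 8 lower in the rejection effect, 4 lower in the strain effect and 8 lower in the surgical effect. The untransplanted rats share only a number (correlations of deviations 0.00304 to 0.0365), and with it as a replicate block 0 of the 31 genes passed as lower in the PBMC strain effect in place of 2 (Rhag adjusted p = 0.2155, Slc14a1 adjusted p = 0.1856). That fit held the untransplanted arrays only. Its differences were those of the main fit, at -5.46 ± 0.88 for Rhag and -1.76 ± 0.17 for Slc14a1. The causes were not tested.

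With 1 animal left out at a time, genes that passed numbered 2 to 4 higher and 7 to 10 lower in the rejection effect, 3 to 5 lower in the heart strain effect, 4 to 7 lower in the surgical effect, 17 to 24 lower in the strain plus rejection effect, 2 to 4 lower in the PBMC strain effect (4 without untransplanted DA rat 3), 15 to 17 higher and 1 to 3 lower in DA recipients over untransplanted DA rats (1 lower without untransplanted DA rat 3), and 5 to 11 higher and 3 to 4 lower in BN. The median SD ran from 0.4457 to 0.5915 in BN recipients, 0.774 to 0.859 in DA recipients, 0.2165 to 0.3149 in untransplanted BN and 0.137 to 0.317 in untransplanted DA rats. Of the recomputed differences of called genes, 743 kept their direction and stayed past the threshold, 14 kept their direction but no longer passed, and none reversed. Beside those given with their genes, these were Car1 in DA with quantile normalization (adjusted p = 0.103) and Kel in BN with quantile normalization (adjusted p = 0.109) and the mean of its probesets (adjusted p = 0.206). Groups of 3 untransplanted rats and signals under the array median limit the precision.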
